A study of Mus musculus with 9 samples.

Results

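The genes described here are 6 genes whose messenger RNA is typical of red blood cells: the alpha globin genes Hba-a1 and Hba-a2, the beta globin genes Hbb-bs and Hbb-bt, Alas2 and Slc4a1. They were chosen by symbol, and all 6 were found among the 55453 genes listed in the count table of whole mouse aorta. All 6 also passed the filter on low counts that left 19412 genes for testing.

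Haemoglobin is a tetramer of alpha and beta chains that carries oxygen on haem. Its messenger RNAs are made in red cell precursors of the bone marrow and persist in reticulocytes, the youngest circulating red cells, which have lost their nucleus but still hold RNA. Alas2 is the red cell form of the first enzyme of haem synthesis, and Slc4a1 is band 3, the chloride and bicarbonate exchanger of the red cell membrane, a form of which is also made in the kidney. In the artery wall, alpha globin is also known as a protein of endothelial cells of small arteries, where it limits the diffusion of nitric oxide to smooth muscle.

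The data are RNA-seq libraries of polyadenylated RNA from the whole aorta of each of 9 C57BL/6J mice, with 3 mice per genotype. The Itga8-Cre animals carried Itga8-CreERT2, a Cre recombinase that tamoxifen switches on and that is tied to the integrin gene Itga8. Myh11-Cre mice carried Myh11-CreERT2, the same kind of recombinase tied to Myh11, which encodes the myosin heavy chain of smooth muscle, and Wild Type mice were the controls. The series was made to set the activity of the first line against that of the second. Aortae were frozen in liquid nitrogen. Age, sex, transgene copy number, perfusion of the vessels and whether tamoxifen was given are not in the labels, and the number in a mouse's name is not said to mark a shared day or litter.

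Total counts ran from 31419238 to 42497543 per library. Levels are given in CPM, the share of a library's counts after scaling each library by its trimmed mean of M values (TMM), and levels of different genes are ranked only in RPKM, which is CPM per kilobase of exon. Ratios between genes are given in CPM and serve only to compare libraries. Itga8 itself was at 54.1 to 76.5 CPM in Itga8-Cre mice, 72.4 to 300.3 CPM in Myh11-Cre mice and 147 to 475 CPM in Wild Type aortae. The aortae differed in the tissue taken with them. The summed level of 6 skeletal muscle genes was 122 to 5243 CPM in Itga8-Cre mice, 81.2 to 11999.5 CPM in Myh11-Cre mice and 671 to 1295 CPM in Wild Type mice. That of 5 brown fat genes was 2045 to 6828 CPM in Itga8-Cre mice, 2999 to 6393 CPM in Myh11-Cre mice and 2531 to 3395 CPM in Wild Type mice. Smooth muscle was present throughout, with 8 of its genes summing to 1306 to 1653 CPM in Itga8-Cre mice, 1015 to 2623 CPM in Myh11-Cre mice and 2038 to 3479 CPM in Wild Type mice.

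The 4 globin genes are 2 pairs of near-identical copies, which bears on every value of a single globin gene. Hba-a1 (ENSMUSG00000069919.7) spans bases 32283511 to 32284465 and Hba-a2 (ENSMUSG00000069917.7) bases 32296489 to 32297298, both on the plus strand of chromosome 11 (GRCm38, GENCODE M21). Their coding sequences of 429 bases differ at 1 base, C381T in Hba-a2 relative to Hba-a1, counted from the A of the start codon. Hbb-bs (ENSMUSG00000052305.6, bases 103826534 to 103828096) and Hbb-bt (ENSMUSG00000073940.3, bases 103812524 to 103813996) lie on the minus strand of chromosome 7. Their coding sequences of 444 bases also differ at 1 base, C417T in Hbb-bt relative to Hbb-bs. Both differences fall on the last base of a codon. The stretches of 75 coding bases around each difference, as long as 1 read of this study, are shown because they are what a read had to distinguish, with the differing base in capitals.
Hba-a1: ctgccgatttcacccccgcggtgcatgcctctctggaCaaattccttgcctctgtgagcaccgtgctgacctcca
Hba-a2: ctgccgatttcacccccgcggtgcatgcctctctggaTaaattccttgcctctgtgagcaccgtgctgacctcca
Hbb-bs: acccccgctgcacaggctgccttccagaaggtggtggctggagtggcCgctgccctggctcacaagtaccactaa
Hbb-bt: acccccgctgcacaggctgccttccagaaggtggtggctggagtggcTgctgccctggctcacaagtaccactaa

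Of all 75-base windows along the transcript of each globin gene, 37.8% of the 625 of Hba-a1, 19.0% of the 480 of Hba-a2, 35.7% of the 554 of Hbb-bs and 43.4% of the 629 of Hbb-bt were found in no other gene's transcripts. The remaining windows are shared with the other copy. The sources used here do not say how reads that fit both copies were counted, so the split within each pair is uncertain. All windows of Alas2 and of Slc4a1 were found in no other gene.

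The start regions of these genes are shown to describe their sequence, and their part in the levels measured here was not tested. Printed are the 100 bases before the RefSeq start site (RefSeq, GRCm38.p6) for the 5 genes that had an entry, with capitals marking matches, on either strand, to the TATA box (spelled TATAAA or ending as in TATAAG), to the CCAAT box, to the CACCC box and to a site of the GATA factors (spelled AGATAA or else as AGATAG or else as TGATAA or else as TGATAG). Matches that abut run together in capitals. Slc4a1 was not matched.
Hba-a1 (chr11:32283572-32283671, plus strand): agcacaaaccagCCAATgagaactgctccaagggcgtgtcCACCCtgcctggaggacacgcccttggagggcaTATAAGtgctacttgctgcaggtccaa
Hba-a2 (chr11:32296392-32296491, plus strand): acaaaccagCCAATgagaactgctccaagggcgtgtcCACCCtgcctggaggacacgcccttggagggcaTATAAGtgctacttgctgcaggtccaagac
Hbb-bs (chr7:103827929-103828028, minus strand): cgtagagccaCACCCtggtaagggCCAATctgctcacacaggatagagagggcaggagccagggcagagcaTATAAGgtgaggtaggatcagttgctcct
Hbb-bt (chr7:103813924-103814023, minus strand): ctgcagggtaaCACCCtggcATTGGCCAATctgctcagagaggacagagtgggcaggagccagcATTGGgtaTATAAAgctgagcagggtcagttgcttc
Alas2 (chrX:150547317-150547416, plus strand): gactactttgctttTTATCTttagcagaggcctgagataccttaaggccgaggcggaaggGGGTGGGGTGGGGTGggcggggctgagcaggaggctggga

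All 4 globin regions held a TATA box, a CCAAT box and a CACCC box within these 100 bases. The 2 alpha globin regions were the same sequence set off by 3 bases, with 0 differences over the 97 bases that overlap. Their CACCC box lay between the CCAAT box and the TATA box, whereas in both beta globin regions it lay furthest upstream. The region of Alas2 held 3 CACCC boxes on the minus strand and 1 GATA site, and no match to the other motifs. Among 32851 mouse promoters of the same length, 7.91% held the TATA words, 18.9% CCAAT, 27.2% CACCC and 10.4% a GATA word, and 0.408% held the first 3 together. These are matches of letters, not bound sites.

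Per length, Hbb-bs was the most abundant of these messages in each library. Hbb-bs, an adult beta globin of the haplotype of C57BL mice, was at 304, 84.1 and 235 CPM in Itga8-Cre mice 1, 2 and 3, at 164, 781 and 303 CPM in Myh11-Cre mice 1, 2 and 3, and at 251, 107 and 164 CPM in Wild Type mice 1, 2 and 3. Myh11-Cre 2 stood above every other library, Itga8-Cre 2 was lowest, and the 3 genotypes overlapped. Hbb-bt, the other adult beta globin, was at 53.4, 16.3 and 41.9 CPM in Itga8-Cre mice, 26.3, 117 and 48.4 CPM in Myh11-Cre mice, and 45.5, 16.0 and 25.8 CPM in Wild Type mice. Its highest library was the same, and its lowest was Wild Type 2, just under Itga8-Cre 2.

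The alpha globins followed nearly the same order of mice. Hba-a1 was at 117, 26.1 and 70.9 CPM in Itga8-Cre mice 1, 2 and 3, 54.6, 213 and 97.6 CPM in Myh11-Cre mice 1, 2 and 3, and 85.0, 30.8 and 62.3 CPM in Wild Type mice 1, 2 and 3. Hba-a2 was at 80.4, 19.0 and 53.9 CPM in Itga8-Cre mice, 38.1, 148 and 64.6 CPM in Myh11-Cre mice, and 57.7, 19.0 and 41.6 CPM in Wild Type mice. Both were highest in Myh11-Cre 2, and in each gene Itga8-Cre 2 and Wild Type 2 were the lowest libraries.

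Alas2 and Slc4a1, which share no 75-base window with the globins, gave the same picture. Alas2 (ENSMUSG00000025270.13, chromosome X, 150547375 to 150570638, plus strand) was at 28.9, 7.83 and 17.4 CPM in Itga8-Cre mice 1, 2 and 3, 12.3, 57.8 and 25.4 CPM in Myh11-Cre mice, and 20.5, 7.91 and 14.2 CPM in Wild Type mice. Of its 2403 exonic bases, 311 overlap Apex2, a DNA repair gene on the opposite strand, and the sources used here do not say if counting was by strand. Apex2 was at 12.0 to 19.0 CPM, and its lowest value came from Myh11-Cre 2, the library highest in Alas2. Levels of the whole Apex2 gene do not show the reads in the 311 shared bases. What part of the Alas2 counts came from Apex2 was not tested. Slc4a1 (ENSMUSG00000006574.15, chromosome 11, 102348824 to 102366203, minus strand) was at 2.54, 0.857 and 2.80 CPM in Itga8-Cre mice, 1.37, 5.59 and 3.83 CPM in Myh11-Cre mice, and 2.09, 0.476 and 1.80 CPM in Wild Type mice. It rests on 18 to 230 reads per library, and its exact 95% Poisson interval was 201.2 to 261.7 reads in Myh11-Cre 2 and 10.7 to 28.45 reads in Wild Type 2, which covers counting error only.

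**Figure D1:**
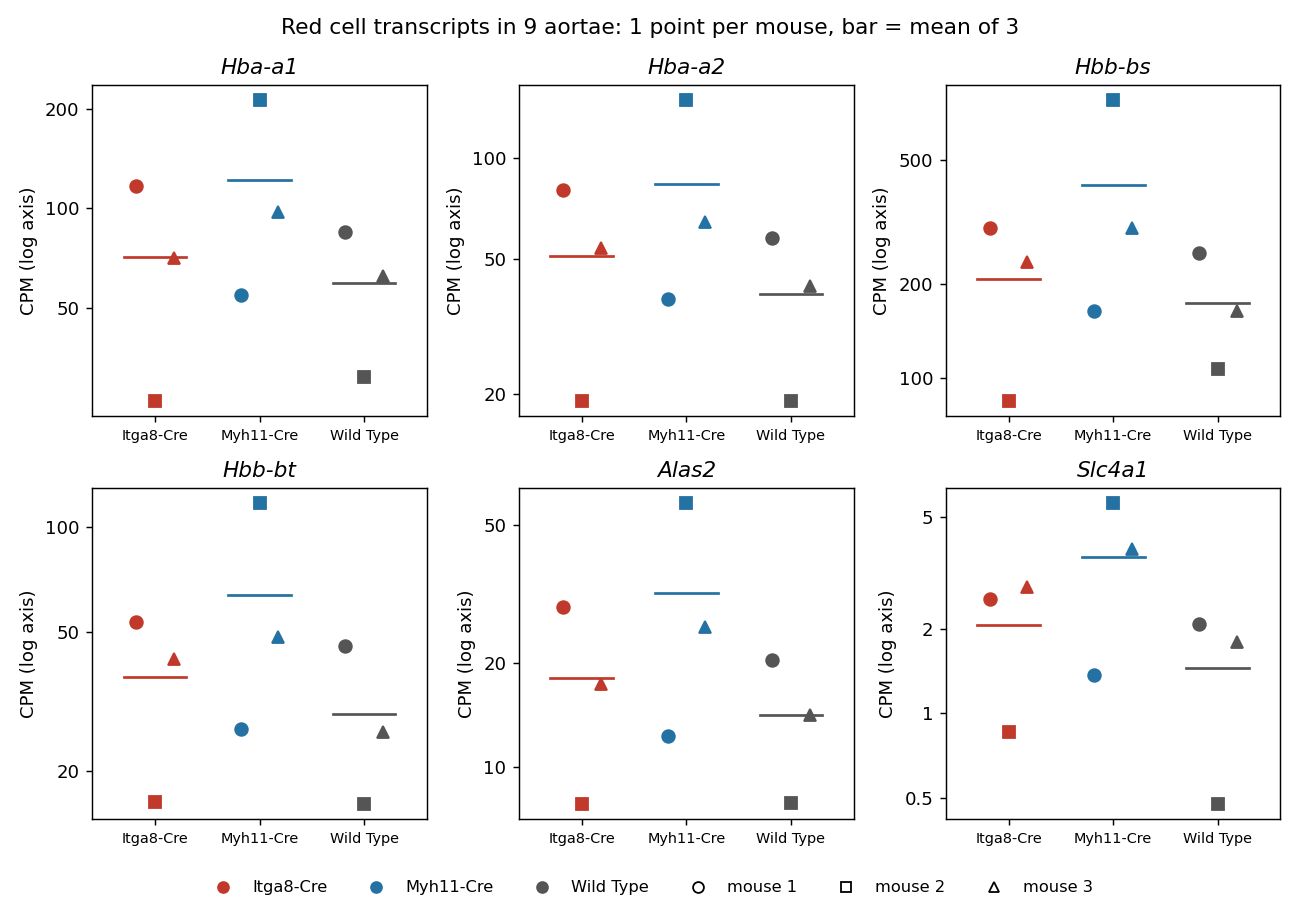
Levels of the 6 red cell transcripts in CPM on a log axis, with 1 point per mouse and a bar at the mean of 3 mice for Itga8-Cre, Myh11-Cre and Wild Type. In each panel Myh11-Cre 2 is the highest point (781 CPM for Hbb-bs, 5.59 CPM for Slc4a1), mouse 2 of Itga8-Cre and of Wild Type are the lowest, and the genotypes overlap.

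From lowest to highest library the 6 genes spanned 7.33-fold (Hbb-bt) to 11.7-fold (Slc4a1). Most of that span lay between mice of the same genotype. The within-genotype SD of log2 CPM was 0.92 to 1.05 for the 6 genes, against a median of 0.29 over the 19412 genes tested, which placed them at the 92.3rd to 94.2nd percentile of all genes in variability. Per length, the order of levels was Hbb-bs, Hba-a1, Hba-a2, Hbb-bt, Alas2 and Slc4a1 in each of the 9 libraries. Mean RPKM of Hbb-bs was 270.5 ± 146 in Itga8-Cre mice, 542 ± 422 in Myh11-Cre mice and 227 ± 94.7 in Wild Type mice (SD, n = 3 each). Mean RPKM of Alas2 was 7.52 ± 4.40 in Itga8-Cre mice, 13.3 ± 9.75 in Myh11-Cre mice and 5.90 ± 2.61 in Wild Type mice, and that of Slc4a1 was 0.423 ± 0.216 in Itga8-Cre mice, 0.735 ± 0.434 in Myh11-Cre mice and 0.297 ± 0.175 in Wild Type mice. The place of each globin copy in that order depends on how shared reads were counted.

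The first comparison asked whether the aortae of the new Cre line differed from controls. None of the 6 genes passed the test in Itga8-Cre against Wild Type (edgeR's quasi-likelihood test, Benjamini-Hochberg adjustment over all genes tested, threshold 0.05), where 0% of all tested genes were called. Hbb-bs averaged 208 ± 112 CPM in Itga8-Cre mice and 174 ± 72.8 CPM in Wild Type mice (SD, n = 3 each), a log2 fold change of 0.25 with a standard error (SE) of 0.63 and an adjusted edgeR p of 0.92. Its 95% interval ran from -1.18 to 1.69 on the log2 scale. Slc4a1 averaged 2.07 ± 1.06 CPM in Itga8-Cre mice and 1.45 ± 0.858 CPM in Wild Type mice, with a log2 fold change of 0.51 (SE 0.68, adjusted p = 0.853). Over the 6 genes the log2 fold changes were 0.25 to 0.51 with a median of 0.35, beside a median of 0.04 for all genes tested, and 55.9% of all genes had a value above 0. Adjusted p-values ran from 0.853 to 0.92. Also at an unadjusted p under 0.05 edgeR gave 0 of the 6 (6.78% of all genes), DESeq2 gave 0 at an unadjusted p under 0.05 (4.91% of all genes) and called 0 after adjustment (0.166% of all genes) and limma voom 0 (0% of all genes). Shares for DESeq2, here and below, are of the 33998 genes it gave a p or of those it gave an adjusted p, and not of the 19412. The groups overlapped for all 6, while 11.1% of all genes had groups that did not overlap (5.76% with Itga8-Cre above). The direction rested on single mice. Without Itga8-Cre 1 the log2 fold change of Hbb-bs was -0.13, that of Hba-a1 -0.29, that of Hba-a2 -0.11 and that of Alas2 -0.17, Hbb-bt was at -0.0034 and Slc4a1 at 0.33. Without Wild Type 2 the 6 values lay between -0.05 and 0.09, and without Itga8-Cre 2 between 0.62 and 0.88.

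The second comparison asked the same of the established line. The 6 genes had their highest means in Myh11-Cre aortae, but none passed the test against Wild Type, where edgeR called 0% of all genes. Hbb-bs averaged 416 ± 324 CPM in Myh11-Cre mice and 174 ± 72.8 CPM in Wild Type mice (SD, n = 3 each), a log2 fold change of 1.26 (SE 0.64) with an adjusted edgeR p of 0.358. Its 95% interval ran from -0.20 to 2.71, that is from a 0.869-fold to a 6.56-fold level. Alas2 averaged 31.9 ± 23.4 CPM in Myh11-Cre mice and 14.2 ± 6.27 CPM in Wild Type mice, with a log2 fold change of 1.17 (SE 0.63, adjusted p = 0.381). Slc4a1 averaged 3.60 ± 2.12 CPM in Myh11-Cre mice and 1.45 ± 0.858 CPM in Wild Type mice, with a log2 fold change of 1.31 (SE 0.68, adjusted p = 0.367). The 6 log2 fold changes were 1.03 to 1.31 with a median of 1.15, beside a median of 0.01 for all genes tested, of which 50.9% were above 0. All 6 adjusted p-values lay between 0.358 and 0.434.

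At an unadjusted p under 0.05, edgeR gave 0 of the 6 genes in Myh11-Cre against Wild Type (16.4% of all genes). DESeq2 gave 4 of the 6 (10.7% of 33998 genes, a set without edgeR's filter on low counts, so the 2 shares are not alike). After adjustment DESeq2 called 0 of the 6 (4.44% of all genes), with a lowest adjusted p of 0.215 for Hbb-bs, and limma voom called 0 (0% of all genes). The groups overlapped for all 6, against 26% of all genes whose groups did not (11.3% with Myh11-Cre above). Myh11-Cre 1, with 164 CPM of Hbb-bs, lay below Wild Type 1 for each of the 6 genes. Without Myh11-Cre 2 the log2 fold change of Hbb-bs was 0.43, that of Hba-a1 0.37, that of Hba-a2 0.39, that of Hbb-bt 0.37, that of Alas2 0.42 and that of Slc4a1 0.85, with adjusted p-values from 0.63 to 0.811.

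The third comparison set the lines against each other and is also the test of whether their differences from Wild Type differ. None of the 6 genes passed in Itga8-Cre against Myh11-Cre, where edgeR called 0% of all genes. Hbb-bs averaged 208 ± 112 CPM in Itga8-Cre mice and 416 ± 324 CPM in Myh11-Cre mice (SD, n = 3 each), a log2 fold change of -1.0 (SE 0.64, adjusted p = 0.623) with a 95% interval from -2.45 to 0.45. The 6 values were -1.0 to -0.71 with a median of -0.79, beside a median of 0.01 for all genes tested, of which 51.3% were above 0, and adjusted p-values were 0.623 to 0.701. At an unadjusted p under 0.05 edgeR gave 0 of the 6 (9.48% of all genes), and DESeq2 gave 0 at that threshold (5.89% of all genes) and called 0 after adjustment (0.109% of all genes) and limma voom 0 (0% of all genes). The groups overlapped for all 6, against 12.7% of all genes whose groups did not (9.65% with Itga8-Cre above). Without Myh11-Cre 2 the 6 log2 fold changes lay between -0.34 and -0.02, and without Itga8-Cre 1 between -1.38 and -0.98. The 3 comparisons share their libraries, so the members' values in them are not separate evidence. In whole tissue, more cells of a type and more RNA per cell cannot be told apart.

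**Figure D2:**
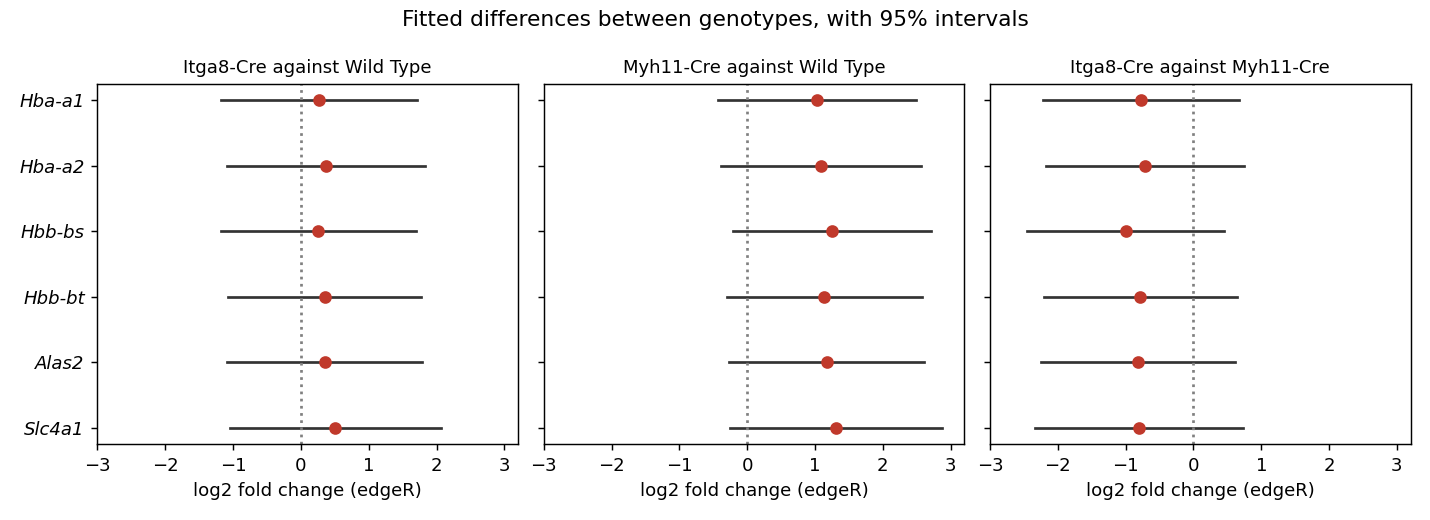
edgeR log2 fold changes of the 6 genes (points) with 95% intervals (lines) for Itga8-Cre against Wild Type, Myh11-Cre against Wild Type and Itga8-Cre against Myh11-Cre. The points lie between 0.25 and 0.51, between 1.03 and 1.31 and between -1.0 and -0.71, and each interval includes 0.

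Although absolute levels varied widely between mice, the proportions between the genes varied little. The ratio of alpha to beta globin in CPM was 0.551, 0.449 and 0.450 in Itga8-Cre mice 1, 2 and 3, 0.488, 0.401 and 0.461 in Myh11-Cre mice, and 0.4804, 0.405 and 0.547 in Wild Type mice. It spanned 1.37-fold over the 9 libraries, while Hbb-bs alone spanned 9.29-fold. Alas2 relative to the summed globins ranged from 0.0434 to 0.0538, a span of 1.24-fold. It averaged 0.0498 ± 0.00563 in Itga8-Cre mice, 0.0463 ± 0.00289 in Myh11-Cre mice and 0.0468 ± 0.00125 in Wild Type mice (SD, n = 3 each). Slc4a1 relative to the globins varied more, from 0.00275 to 0.00745, and its lowest value came from the 18 reads of Wild Type 2.

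Within the alpha pair, Hba-a1 to Hba-a2 was 1.45, 1.37 and 1.31 in Itga8-Cre mice 1, 2 and 3, 1.43, 1.44 and 1.51 in Myh11-Cre mice, and 1.47, 1.62 and 1.5 in Wild Type mice. Each Itga8-Cre value lay below each Wild Type value, with means of 1.38 ± 0.0683 in Itga8-Cre mice and 1.53 ± 0.0795 in Wild Type mice (SD, n = 3 each). Within the beta pair, Hbb-bs to Hbb-bt was 5.68, 5.17 and 5.62 in Itga8-Cre mice, 6.21, 6.65 and 6.27 in Myh11-Cre mice, and 5.52, 6.68 and 6.37 in Wild Type mice. Each Itga8-Cre value lay below each Myh11-Cre value, with means of 5.49 ± 0.281 in Itga8-Cre mice and 6.38 ± 0.237 in Myh11-Cre mice. Both differences had p = 0.1 in exact two-sided permutation tests, below which 3 against 3 mice cannot go, and 0.75 after Benjamini-Hochberg adjustment over the 15 ratio tests. The other 13 ratio tests had overlapping groups and exact permutation p-values of 0.3 to 0.9. For comparison with the reads' power to tell the copies apart, the ratio of 75-base windows found in no other gene was 2.59 for Hba-a1 to Hba-a2 and that of all windows 1.30. For Hbb-bs to Hbb-bt these were 0.725 and 0.881, well under the measured 5.17 to 6.68.

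**Figure D3:**
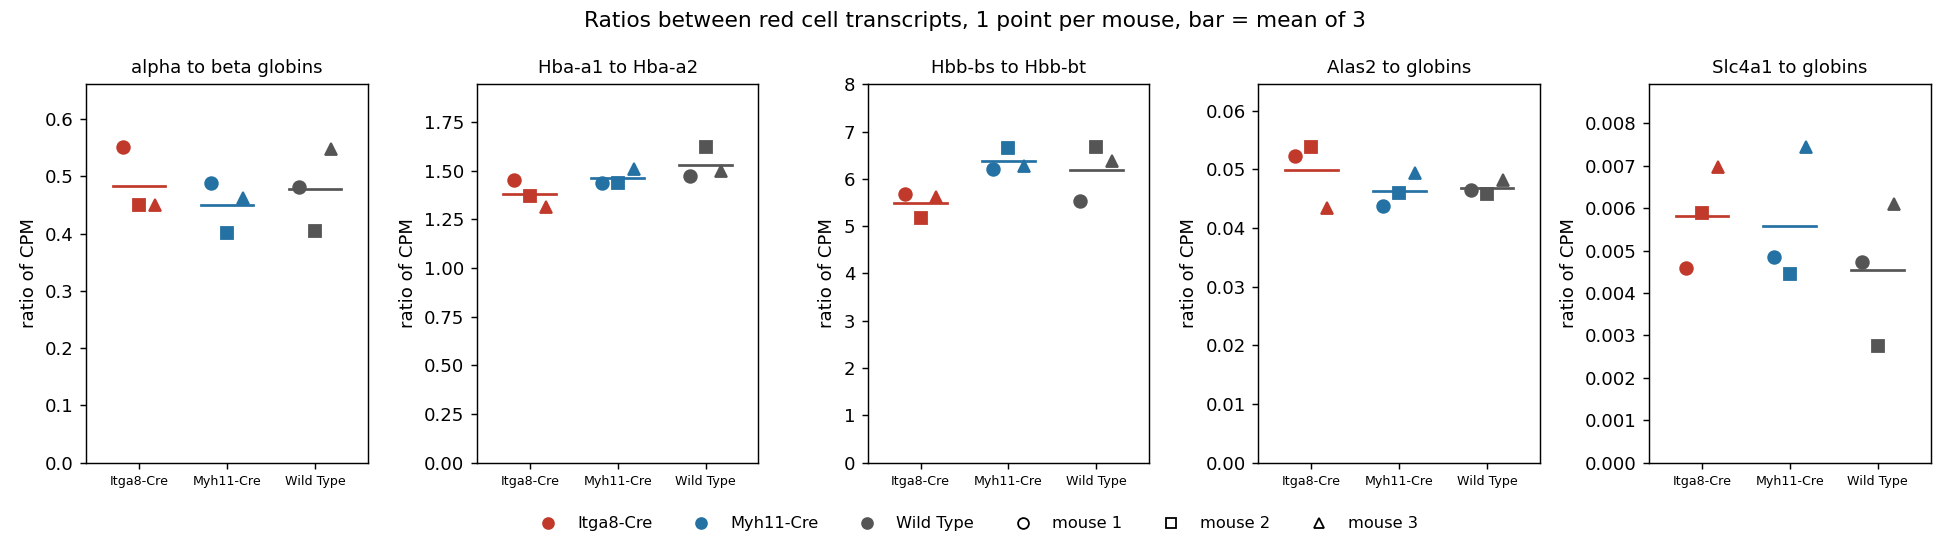
Ratios of CPM between red cell transcripts, with 1 point per mouse and a bar at the mean of 3 mice, and axes that start at 0. Alpha to beta globins stayed between 0.401 and 0.551 and Alas2 to globins between 0.0434 and 0.0538 in all 9 aortae, while Slc4a1 to globins ran from 0.00275 to 0.00745.

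The common movement was also measured with Hbb-bs as the yardstick, on log2 CPM over the 9 libraries, in 12 relations. Hba-a1 correlated with Hbb-bs at Pearson's r = 0.984 (exact permutation p = 2.76e-06, 1.65e-05 after Benjamini-Hochberg adjustment over 12) and Spearman's rho = 1.0 (exact permutation p = 5.51e-06, adjusted 3.31e-05). Leaving out Itga8-Cre 2 and Myh11-Cre 2, which were farthest from the median of Hbb-bs, r was 0.974, and within genotypes it was 0.981. Alas2 correlated with Hbb-bs at r = 0.988 (exact permutation p = 2.76e-06, adjusted 1.65e-05) and rho = 1.0 (p = 5.51e-06, adjusted 3.31e-05), with r = 0.985 without those 2 libraries and 0.988 within genotypes. Both p-values of r are the smallest that 9 libraries can give. Slc4a1 had r = 0.908 (exact permutation p = 0.000953, adjusted 0.00381) and rho = 0.9 (p = 0.00203, adjusted 0.00811), 0.926 without those libraries and 0.893 within genotypes. The slope on the log2 scale was 0.97 for Hba-a1, 0.96 for Alas2 and 1.04 for Slc4a1, where 1 means a fixed proportion. With 0.5 counts added before taking logs, which moves low genes such as Slc4a1 slightly, r over all 15 pairs of the 6 genes was 0.909 to 0.996, and among the globins alone 0.981 to 0.996. These genes were proposed as a group with earlier results of these libraries known, so their correlation is a description of the group.

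**Figure D4:**
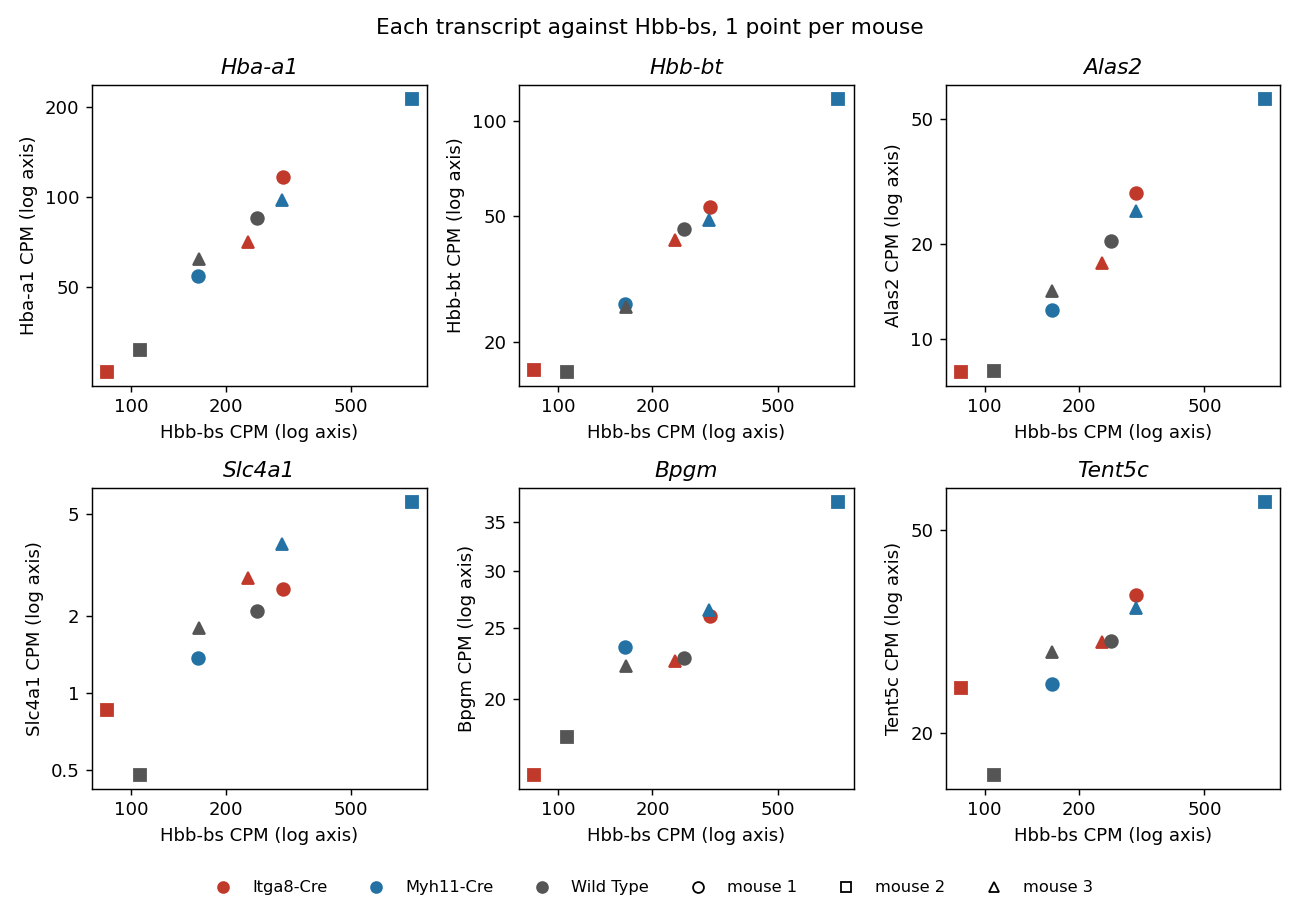
CPM of Hba-a1, Hbb-bt, Alas2, Slc4a1, Bpgm and Tent5c against CPM of Hbb-bs in 9 aortae, both axes log, 1 point per mouse with colour for genotype and shape for mouse number. The points of Hba-a1 and Alas2 fall along a line (r = 0.984 and 0.988), those of Slc4a1 scatter more (0.908), and Bpgm spans only 2.38-fold where Hbb-bs spans 9.29-fold.

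Globins made by embryos or at trace level were close to 0. The 7 such genes in the table all failed the filter on low counts. Hba-x, the embryonic zeta globin, and Hbb-bh0 had 0 reads in all 9 libraries, and 0 reads allow a level of up to 0.0729 to 0.0884 CPM per library (3 counts). Hbb-y, the embryonic epsilon globin, had 1 read in all, Hbb-bh2 1, Hbb-bh1 6, Hbq1a 7 and Hbq1b 11. The globins of other tissues were present. Mb, the myoglobin of muscle, averaged 423 ± 265 CPM in Itga8-Cre mice, 849 ± 609 CPM in Myh11-Cre mice and 227 ± 118 CPM in Wild Type mice (SD, n = 3 each). Cygb, cytoglobin of fibroblast-like cells, averaged 34.7 ± 5.75 CPM in Itga8-Cre mice, 44.9 ± 12.2 CPM in Myh11-Cre mice and 50.4 ± 3.76 CPM in Wild Type mice. Ngb, the globin of nerve cells, was at 1.23, 1.14 and 0.443 CPM in Myh11-Cre mice and 1.68, 4.44 and 5.47 CPM in Wild Type mice. Each Myh11-Cre value lay below each Wild Type value, and 26% of all genes had groups that did not overlap in this comparison. The log2 fold change of Ngb was -2.04 (SE 0.58), with an adjusted p of 0.218 in edgeR and 0.0132 in DESeq2. None of the 3 passed edgeR's test in any comparison (unadjusted p under 0.05 for 1 in Itga8-Cre against Wild Type, 2 in Myh11-Cre against Wild Type and 0 in Itga8-Cre against Myh11-Cre, beside 6.78%, 16.4% and 9.48% of all genes). DESeq2 called 0, 1 and 0 in these comparisons, beside 0.166%, 4.44% and 0.109% of the genes it gave an adjusted p.

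Some regulators and surface proteins of red cell precursors were near the floor, and others were not. Among the listed genes, Tal1 had 132 to 174 reads per library and Gypc 983 to 1689. Gata1, the master transcription factor of the lineage, had 5 to 14 reads per library, Klf1, the activator of adult beta globin, 0 to 6, and Gfi1b 1 to 10. Rhag, the Rh-associated glycoprotein, had 0 to 5 reads, and the Kell protein gene Kel 0 to 11. Of 10 erythroid transcription factor genes 8 were tested and edgeR called 0 in each comparison (unadjusted p under 0.05 for 1, in Itga8-Cre against Myh11-Cre, beside 9.48% of all genes, and DESeq2 0 in each). The factors with appreciable levels are ones that other cells use, such as Ldb1, a LIM domain partner, with 52.7 ± 2.74 CPM in Myh11-Cre mice and 58.1 ± 3.85 CPM in Wild Type mice, and Bcl11a, a repressor of fetal globin that lymphocytes also make, with 15.3 ± 3.62 CPM in Myh11-Cre mice and 20.2 ± 1.04 CPM in Wild Type mice. Nfe2, an activator of globin genes that megakaryocytes also use, was at 0.944, 0.277 and 0.501 CPM in Itga8-Cre mice 1, 2 and 3, 0.383, 1.31 and 0.469 CPM in Myh11-Cre mice, and 0.319, 0.397 and 0.156 CPM in Wild Type mice. It rests on 6 to 54 reads per library, with the 54 in Myh11-Cre 2, and its log2 fold change in Myh11-Cre against Wild Type was 1.31 (SE 0.64, adjusted p = 0.34 in edgeR). Zfpm1, the partner of Gata1 known as FOG-1, ran the other way, with r = -0.845 with the mean of the 6 genes over the 9 libraries. It averaged 17.3 ± 1.76 CPM in Itga8-Cre mice, 13.8 ± 1.34 CPM in Myh11-Cre mice and 16.4 ± 2.74 CPM in Wild Type mice, and each Itga8-Cre value lay above each Myh11-Cre value, as for 9.65% of all genes (adjusted p = 0.521 in edgeR).

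The remaining pathway genes were measured, and their r with the mean of the red cell genes varied widely. For haem synthesis and mitochondrial iron import the median r was 0.369, with genes from -0.625 (Ppox) to 0.689 (Fech). For red cell membrane and skeleton the median was 0.197 (-0.742 to 0.94). It was 0.485 (-0.611 to 0.957) for reticulocytes and late maturation, and 0.443 (-0.148 to 0.864) for haemoglobin and haem clearance. All 12 genes of haem synthesis and mitochondrial iron import were tested, and edgeR called 0 in each comparison (at an unadjusted p under 0.05, 0 in Itga8-Cre against Wild Type, 1 in Myh11-Cre against Wild Type and 2 in Itga8-Cre against Myh11-Cre, beside 6.78%, 16.4% and 9.48% of all genes, and DESeq2 0 in each). Their median log2 fold change in Myh11-Cre against Wild Type was 0.24, beside 0.01 for all genes tested, with 11 of 12 above 0, as were 50.9% of all genes. Cpox, coproporphyrinogen oxidase, averaged 15.2 ± 1.58 CPM in Myh11-Cre mice and 11.9 ± 0.454 CPM in Wild Type mice, with a log2 fold change of 0.35 (SE 0.13, adjusted p = 0.267 in edgeR). Fech, which inserts the iron that completes haem, averaged 104 ± 1.48 CPM in Myh11-Cre mice and 84.0 ± 5.29 CPM in Wild Type mice (log2 fold change 0.30, SE 0.14, adjusted p = 0.316 in edgeR). Alas1, the form of the first enzyme used outside red cells, averaged 227 ± 71.8 CPM in Itga8-Cre mice, 277 ± 52.5 CPM in Myh11-Cre mice and 234 ± 26.3 CPM in Wild Type mice, a far smaller spread than that of Alas2. Ppox was at 17.3 ± 1.25 CPM in Myh11-Cre mice and 20.0 ± 1.26 CPM in Wild Type mice, and Tmem14c, a mitochondrial porphyrin transporter, at 134 ± 28.5 CPM in Myh11-Cre mice and 113 ± 7.15 CPM in Wild Type mice.

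Of 20 genes of the red cell membrane and skeleton, 17 were tested and edgeR called 0 in each comparison (unadjusted p under 0.05 for 0 in Itga8-Cre against Wild Type, 4 in Myh11-Cre against Wild Type and 1 in Itga8-Cre against Myh11-Cre, beside 6.78%, 16.4% and 9.48% of all genes). In Myh11-Cre against Wild Type their median log2 fold change was 0.34, beside 0.01 for all genes tested, with 12 of 17 above 0 (50.9% of all genes). DESeq2 called 1, Add2, beside 4.44% of the genes it gave an adjusted p. Add2, an adducin that caps actin in red cells and neurons, averaged 8.0 ± 5.39 CPM in Myh11-Cre mice and 27.2 ± 9.30 CPM in Wild Type mice, so it was lower where the globins averaged higher (log2 fold change -1.77, SE 0.48, adjusted p = 0.218 in edgeR and 0.0096 in DESeq2). Sptb, the beta spectrin that skeletal muscle also makes, averaged 78.9 ± 49.9 CPM in Myh11-Cre mice and 26.2 ± 9.88 CPM in Wild Type mice, with a log2 fold change of 1.59 (SE 0.61) and an adjusted p of 0.267 in edgeR. It was highest in Myh11-Cre 3, with 119 CPM, which was also the library richest in skeletal muscle genes, and not in Myh11-Cre 2. Slc14a1, a urea transporter, averaged 5.58 ± 2.05 CPM in Itga8-Cre mice, 2.86 ± 0.13 CPM in Myh11-Cre mice and 3.70 ± 0.864 CPM in Wild Type mice. Aqp1, the water channel that endothelium shares with red cells, averaged 278 ± 51.6 CPM in Itga8-Cre mice, 307 ± 11.9 CPM in Myh11-Cre mice and 314 ± 12.7 CPM in Wild Type mice. Stom, stomatin, averaged 169 ± 45.5 CPM in Itga8-Cre mice, 201 ± 39.6 CPM in Myh11-Cre mice and 192 ± 9.60 CPM in Wild Type mice.

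Of 22 genes of reticulocytes and late maturation, 20 were tested and edgeR called 0 in each comparison (unadjusted p under 0.05 for 1 in Itga8-Cre against Wild Type, 4 in Myh11-Cre against Wild Type and 0 in Itga8-Cre against Myh11-Cre, beside 6.78%, 16.4% and 9.48% of all genes, and DESeq2 0 in each). Prdx2, a peroxiredoxin abundant in red cells, was at 128 CPM in each of Myh11-Cre 1, 2 and 3 and at 105, 98.9 and 107 CPM in Wild Type mice. As for 26% of all genes, the groups of Prdx2 did not overlap. Its log2 fold change was 0.30 (SE 0.09), with an adjusted p of 0.225 in edgeR and 0.0534 in DESeq2. Its level in the 3 Myh11-Cre mice was even, whereas that of Hbb-bs differed 4.78-fold between them. Isg20 averaged 6.66 ± 1.30 CPM in Myh11-Cre mice and 4.09 ± 0.602 CPM in Wild Type mice (log2 fold change 0.70, SE 0.26, adjusted p = 0.254 in edgeR), and Hemgn, hemogen, rested on 5 to 24 reads. Bnip3l, which clears mitochondria from reticulocytes, averaged 80.4 ± 8.59 CPM in Myh11-Cre mice and 66.7 ± 4.81 CPM in Wild Type mice (log2 fold change 0.27, SE 0.14, adjusted p = 0.361 in edgeR). With the mean of the red cell genes, r was 0.698 for Prdx2, 0.746 for Isg20, 0.484 for Hemgn and 0.577 for Bnip3l. The lowest r on this list was -0.611.

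Genes of haemoglobin and haem clearance were also measured, and 9 of 10 were tested. In each comparison edgeR called 0 of them (unadjusted p under 0.05 for 0, beside 6.78% to 16.4% of all genes, and DESeq2 0 in each). Cd163, the haemoglobin scavenger receptor of macrophages, was at 43.1, 25.0 and 31.7 CPM in Itga8-Cre mice 1, 2 and 3, 36.4, 47.6 and 46.9 CPM in Myh11-Cre mice, and 43.5, 30.1 and 32.6 CPM in Wild Type mice. Its r with the mean of the 6 genes was 0.864 over the 9 libraries. Hmox1, which breaks haem down, averaged 14.7 ± 3.90 CPM in Itga8-Cre mice, 15.4 ± 6.59 CPM in Myh11-Cre mice and 11.5 ± 1.59 CPM in Wild Type mice. Hp, haptoglobin, averaged 408 ± 114 CPM in Itga8-Cre mice, 469.9 ± 116 CPM in Myh11-Cre mice and 516 ± 149.8 CPM in Wild Type mice. Lrp1 averaged 945 ± 201 CPM in Itga8-Cre mice, 1018 ± 157 CPM in Myh11-Cre mice and 1088 ± 63.0 CPM in Wild Type mice, and Fth1, ferritin heavy chain, 783 ± 181 CPM in Itga8-Cre mice, 859.7 ± 55.0 CPM in Myh11-Cre mice and 793 ± 66.6 CPM in Wild Type mice.

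Markers of other cells that could carry or accompany these messages were summed in each library. All 8 genes of endothelium and alpha globin partners (including Nos3 and Cyb5r3, a partner and a reductase of alpha globin) were tested, edgeR called 0 in each comparison (unadjusted p under 0.05 for 0, beside 6.78% to 16.4% of all genes, and DESeq2 0 in each), and their sum was 666 to 852 CPM in Itga8-Cre mice, 790.1 to 876 CPM in Myh11-Cre mice and 810.1 to 914 CPM in Wild Type mice. None of the 8 was at 0 in any library. Over the 9 libraries that sum had r = 0.389 with Hbb-bs (exact permutation p = 0.296, adjusted 0.447) and rho = 0.667 (p = 0.0589, adjusted 0.141), and r = 0.117 without Itga8-Cre 2 and Myh11-Cre 2. Pecam1, a defining endothelial gene, averaged 163 ± 15.6 CPM in Itga8-Cre mice, 177 ± 8.54 CPM in Myh11-Cre mice and 167 ± 16.6 CPM in Wild Type mice, and Vwf averaged 109 ± 18.6 CPM in Itga8-Cre mice, 153 ± 38.5 CPM in Myh11-Cre mice and 144 ± 23.5 CPM in Wild Type mice.

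Of the 9 lists of other cell types, that of platelets, another cell of blood, had the highest r with Hbb-bs over all 9 libraries. Without Itga8-Cre 2 and Myh11-Cre 2 the macrophage and monocyte sum (r = 0.791) and the neutrophil sum (r = 0.681) lay above that of platelets (r = 0.653). Of 11 platelet and megakaryocyte genes 10 were tested and edgeR called 0 in each comparison (unadjusted p under 0.05 for 3 in Itga8-Cre against Wild Type, 3 in Myh11-Cre against Wild Type and 0 in Itga8-Cre against Myh11-Cre, beside 6.78%, 16.4% and 9.48% of all genes, and DESeq2 0 in each). Their summed level was 72.7, 16.7 and 22.2 CPM in Itga8-Cre mice 1, 2 and 3, 31.6, 51.0 and 29.0 CPM in Myh11-Cre mice, and 22.5, 15.5 and 14.7 CPM in Wild Type mice. All 3 Myh11-Cre sums lay above all 3 Wild Type sums, as did the values of 11.3% of all single genes, and the highest was in Itga8-Cre 1, not in Myh11-Cre 2. Gp1bb was at 0 in 6 libraries and no other gene of the list was at 0 in any. The sum had r = 0.732 with Hbb-bs (exact permutation p = 0.0241, adjusted 0.0723) and rho = 0.717 (p = 0.0369, adjusted 0.111). The 12 relations adjusted over include those of Hba-a1, Alas2 and Slc4a1 with Hbb-bs, a group proposed with earlier results known. Over the 9 lists alone, the adjusted p of the platelet list would be higher. Pf4, platelet factor 4, had the highest r of the list with the mean of the 6 red cell genes, 0.84, and Itga2b, the platelet integrin, was at 17.8, 5.81 and 7.70 CPM in Itga8-Cre mice, 8.13, 13.2 and 8.70 CPM in Myh11-Cre mice, and 5.82, 4.84 and 5.91 CPM in Wild Type mice. The part of blood content in the red cell values was not tested.

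White cell and muscle markers had lower r with Hbb-bs over all 9 libraries, but for neutrophils and macrophages that order rests on Itga8-Cre 2 and Myh11-Cre 2. The summed neutrophil genes were at 13.2 to 20.2 CPM in Itga8-Cre mice, 7.47 to 29.5 CPM in Myh11-Cre mice and 7.69 to 12.2 CPM in Wild Type mice, with the 29.5 in Myh11-Cre 2. Their r with Hbb-bs was 0.481 (exact permutation p = 0.19, adjusted 0.38) and rho 0.383 (p = 0.312, adjusted 0.469), and r was 0.681 without those libraries. The macrophage and monocyte sum had r = 0.348 (exact permutation p = 0.365, adjusted 0.447) and rho = 0.35 (p = 0.359, adjusted 0.478), and r was 0.791 without them. The marrow progenitor sum had r = 0.579 (exact permutation p = 0.101, adjusted 0.242), rho = 0.45 (p = 0.23, adjusted 0.394) and r = 0.33 without them, and the lymphocyte sum r = 0.0164 (p = 0.966, adjusted 0.966), rho = -0.25 (p = 0.521, adjusted 0.521) and r = -0.229 without them. Smooth muscle, skeletal muscle and brown fat sums had r of 0.317, 0.325 and 0.35, with exact permutation p-values from 0.361 to 0.41 (adjusted 0.447), rho of 0.3, 0.267 and 0.55, and r of 0.131, 0.172 and 0.574 without them. Mpo and Elane, enzymes of granulocyte precursors in the marrow, had 1 to 12 and 1 to 8 reads per library. Most of the marrow progenitor sum was Cd34, with a mean of 76.0 CPM beside 19.7 CPM for Kit. Cd34 had r = 0.647 with the mean of the red cell genes, while Kit (-0.324) and Prtn3 (-0.382) went the other way. The r of that sum therefore mainly describes Cd34 and not the list as a whole. Myh11-Cre 3, the library richest in skeletal muscle genes, had 303 CPM of Hbb-bs, less than Myh11-Cre 2 and about as much as Itga8-Cre 1, which had 122 CPM of those muscle genes. How far tissue taken with the aorta bears on the red cell values was not tested. edgeR called 0 genes of these 7 lists in each comparison, with 0 to 3 genes of a list at an unadjusted p under 0.05 (6.78% to 16.4% of all genes), and DESeq2 called 0.

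The genes whose pattern was most like that of the red cell genes were sought among 13794 tested genes, on the lists or not, with a mean of at least 1 CPM. The measure was Pearson's r of log2 CPM with the mean log2 CPM of the 6 genes over the 9 libraries, given without a p-value. The 8 highest were Inhbb (0.978), Bpgm (0.957), Tent5c (0.948), Slc35e4 (0.926), Igfbp5 (0.923), Ndufa4l2 (0.913), Fer1l6 (0.901) and Polb (0.90). Bpgm makes bisphosphoglycerate, which lowers the oxygen affinity of haemoglobin, and was at 26.0, 15.7 and 22.6 CPM in Itga8-Cre mice 1, 2 and 3, 23.6, 37.4 and 26.5 CPM in Myh11-Cre mice, and 22.8, 17.7 and 22.2 CPM in Wild Type mice. Tent5c, a poly(A) polymerase, was at 37.3, 24.5 and 30.3 CPM in Itga8-Cre mice, 25.0, 56.9 and 35.2 CPM in Myh11-Cre mice, and 30.3, 16.6 and 28.9 CPM in Wild Type mice. Both are on the list of late maturation genes, and both were highest in Myh11-Cre 2.

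The other 6 were on none of the lists, and most of them moved over a narrower range. Inhbb, a subunit of activin and inhibin, ran only from 3.49 to 4.79 CPM, and Polb, a DNA polymerase of base repair, from 17.9 to 21.9 CPM. Igfbp5, which binds insulin-like growth factors, ran from 247 to 536 CPM and Fer1l6 from 0.687 to 5.73 CPM. How many of the 13794 candidates would come this close by chance was not tested. Beyond the 8 and chosen after their values were seen, genes of the lists with an r of at least 0.8 included Mkrn1 (0.81) of the red cell lists, Retnlg (0.877) of the neutrophil list and Cd163 of the clearance list, beside Pf4.

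**Figure D5:**
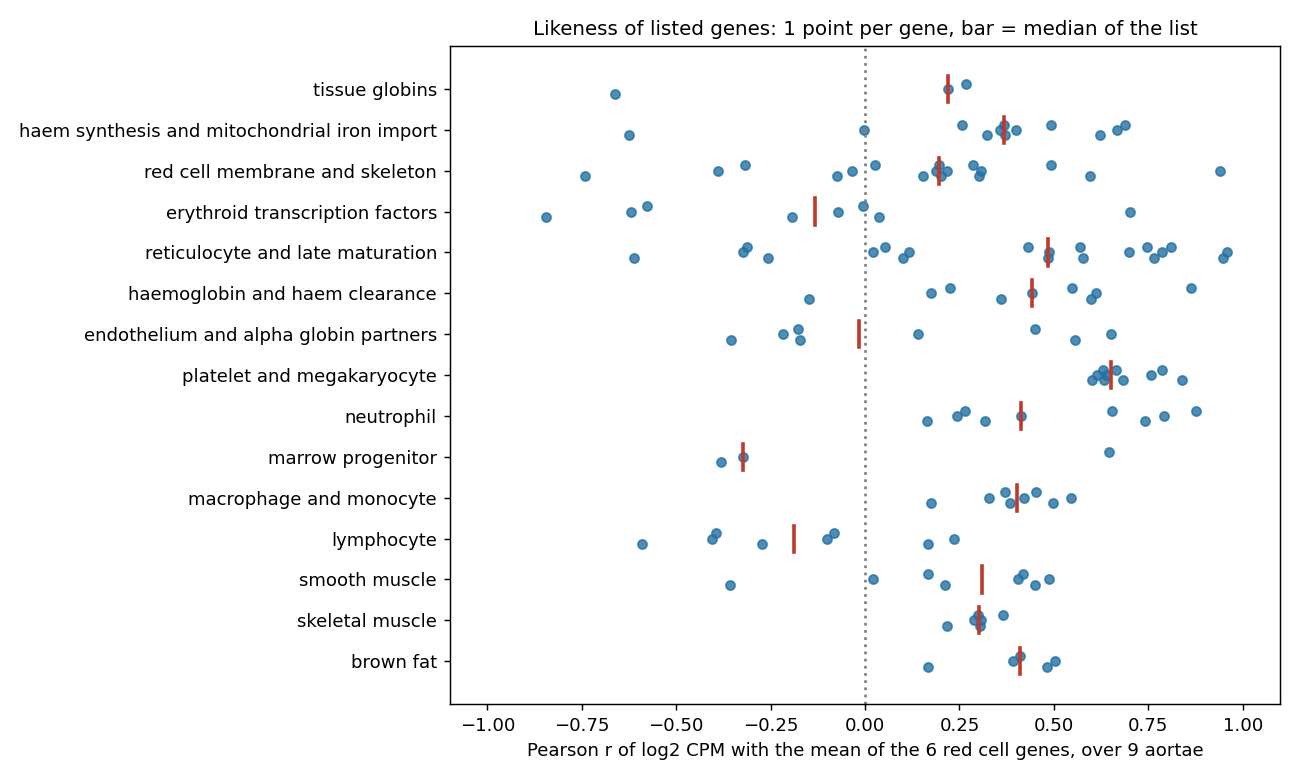
Pearson r of log2 CPM of each tested listed gene (points) with the mean of the 6 red cell genes over 9 aortae, and the median of each list (bars). The platelet list has the highest median (0.651, all 10 genes between 0.602 and 0.84), the late maturation list follows (0.485) with genes from -0.611 to 0.957, and erythroid transcription factors have a median of -0.132.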

How the data were processed

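Aortae were frozen, RNA was isolated with RNeasy Plus Mini kits, and TruSeq Stranded mRNA libraries were read as single 75 nt reads, per the labels' protocols. The authors deposited whole-number counts per gene and a second table of signal, these counts divided by 1 size factor per library. Dividing out the factors gave whole reads for 100% of values above 0 (within 0.001), all equal to the counts, and edgeR made the same number of calls from them. The submitters' processing notes name Salmon 0.13.1, STAR 2.7.0f, featureCounts, Subread 1.6.4, DESeq2, fastp 0.20.0 and the build GRCm38.p6. The sources used here give no annotation release, no strand setting and no rule for reads with several matches. Total counts were 31419238 to 42497543, and replicate libraries differed by far more than counting noise.

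Counts were fitted in R 4.3.3 with edgeR 4.0.16 (filterByExpr, TMM, robust quasi-likelihood, group means over all 9 libraries, Benjamini-Hochberg over 19412 genes). With DESeq2 1.42.0 and limma 3.58.1 voom as alternatives, the other settings were other scalings, no filter, no robust estimation, only the groups compared, mouse number as a block, and leaving out each library. The edgeR step was tested on simulated data. Intervals of fold changes are 95% intervals. RPKM used exon unions of GENCODE M21, which need not be the annotation that was counted on. Ratios and correlations used exact permutation tests, and no alternative to these tests was run beyond a pseudocount of 0.5 CPM and leaving out libraries. Likeness used log2 CPM with 0.5 counts added. The labels name separate mice, so p-values measure the spread between mice.

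The 6 genes and the gene lists were chosen with earlier results of these data known. Named from each pathway list were up to 3 genes with the smallest p in any comparison and 2 with the highest mean, and from each cell type list up to 2 with the highest mean, together with the 8 genes by likeness. Gata1, Klf1, Gfi1b, Tal1, Rhag, Kel, Gypc, Mpo, Elane, Prtn3, Gp1bb, Mkrn1, Retnlg and the single embryonic globins were named after their values were seen. Of the 2 cell type genes of each list, those of muscle, fat and white cells are covered by their sums. One further gene named after its values were seen is not reported here.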

Additional observations from a re-analysis of the deposited data

How the results depend on the processing

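None of the 6 red cell genes was called in any comparison under any of the 19 alternatives run for it. The count of all genes called was 0 by edgeR in each comparison. DESeq2 called 30 genes in Itga8-Cre against Wild Type, 828 in Myh11-Cre against Wild Type and 19 in Itga8-Cre against Myh11-Cre, and 2 pathway genes (Ngb and Add2) in Myh11-Cre against Wild Type. Library totals without TMM gave 1 gene in Myh11-Cre against Wild Type and 1 in Itga8-Cre against Myh11-Cre, and no filter on low counts gave 1 in Myh11-Cre against Wild Type. The causes were not tested.

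In Itga8-Cre against Wild Type, leaving out 1 library moved the log2 fold change over -0.29 to 0.65 for Hba-a1, -0.11 to 0.76 for Hba-a2, -0.13 to 0.62 for Hbb-bs, -0.0034 to 0.82 for Hbb-bt and -0.17 to 0.70 for Alas2. The negative values came without Itga8-Cre 1 and, for Hba-a1 (-0.05) and Hbb-bs (-0.0012), also without Wild Type 2. In the other comparisons no member changed direction. Log2 differences of ratios near 0 changed sign as libraries were left out: alpha to beta globin over -0.0909 to 0.126 in Itga8-Cre against Wild Type and -0.192 to 0.0247 in Myh11-Cre against Wild Type, Hbb-bs to Hbb-bt over -0.0332 to 0.104 and Alas2 to globins over -0.0633 to 0.0257 in Myh11-Cre against Wild Type, and Slc4a1 to globins over -0.0664 to 0.307 in Itga8-Cre against Myh11-Cre. With 0.5 CPM added to each level, 2 ratio differences had groups that did not overlap, as before.

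With mouse number as a replicate block, 1 gene, none of the 6, was called in Myh11-Cre against Wild Type. Of 9 same-numbered pairs of libraries, 5 had residuals correlated above 0.1 (range 0.0411 to 0.389, other pairs -0.341 to 0.246), and for 7 libraries the best match in each other genotype was the mouse of the same number, which is a hint from the data and not from the design. Depth limits mainly Slc4a1, at 18 to 230 reads.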
